A study of Mus musculus with 14 samples.

Results

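Fulvestrant, a steroidal ligand of the estrogen receptor, was compared with the nonsteroidal ligands raloxifene and tamoxifen, each given alone to ovariectomized mice. The comparison rests on 3 arrays, 1 for each compound, to which the first of the 2 estradiol (E2) arrays was added as the reference for an estrogen-like response; these are 4 of the 14 arrays of the series. A gene was read as a partial agonist response when both nonsteroidal arrays lay more than 1.5-fold above, or more than 1.5-fold below, the fulvestrant array and E2 array 1 lay past the same fold on the same side of the mean of the vehicle arrays. Of 45037 probe sets, 9 met this rule on the higher side and 14 on the lower side.

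Estrogen receptors are transcription factors that ligand binding turns toward activation or repression of their targets. Fulvestrant carries the estradiol ring system with a long side chain and is known as a pure antiestrogen that also lowers the amount of receptor. Raloxifene, a benzothiophene, and tamoxifen, a triphenylethylene, are selective estrogen receptor modulators: each blocks the receptor in some tissues or at some genes and acts as a weak estrogen at others.

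All mice were female C57BL/6, 11 to 12 weeks old on entry, had lost their ovaries 7 days before treatment and were killed 3 h after it. The glands of the 8 animals of a group were pooled. Each of the 3 compounds, alone or with E2, was measured on 1 array, and the vehicle, E2, acolbifene (another antiestrogen) and E2+acolbifene groups on 2. No source used here gives the doses of the 3 compounds, so the time was matched but the doses are not known to be, and each contrast compares a compound at an unstated dose. The labels do not tell whether both arrays of a group had their own pool, so p-values cover array-to-array spread alone, possibly technical. An array without a replicate was assumed to vary like the 3 groups with 2 arrays of one raw-file code (vehicle, acolbifene, E2+acolbifene), since the E2 pair went into estimating the code's own effect; the compound arrays carry the other code.

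The arrays held whole mammary tissue. On the 3 compound arrays the median log2 level was 10.08 to 10.13 for 12 luminal epithelial markers, 12.4 to 12.6 for 11 adipocyte markers and 9.04 to 10.09 for 20 skeletal muscle markers. The medians of all probe sets lay between 7.16 and 7.23 on the 14 arrays. The 3 compound arrays, their 3 combinations with E2 and E2 array 1 carried one raw-file code and E2 array 2 and the other arrays another, a code whose meaning the labels do not state. Control spikes averaged 9.573 to 9.811 on the 7 arrays of the first code, 9.75 on E2 array 2 and 10.0 to 10.18 on the remaining 6. The contrasts among the 3 compounds lie within one code and one spike range. Against vehicle, E2 array 1 differs in both, while E2 array 2 shares the code but not the spike range. In the contrast of E2 with vehicle a technical difference therefore cannot be told apart from the hormone.

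The higher set had 6 named genes: Pgr, Smim38, Acot1, F3, Tgm2 and Aasdhppt. The promoters of Pgr, Smim38 and F3 are shown because these genes had the largest differences for both compounds (Pgr, Smim38) and the largest gap between raloxifene and tamoxifen (F3). Each is the 250 bases before the gene's start, from RefSeq on GRCm38.p6, with half-sites of the estrogen response element (GGTCA, either strand) and AP-1 sites (TGANTCA, either strand) in capitals. They lie at chr9:8899583-8899832 (plus strand), chr7:145208120-145208369 (minus strand) and chr3:121723287-121723536 (plus strand).
Pgr: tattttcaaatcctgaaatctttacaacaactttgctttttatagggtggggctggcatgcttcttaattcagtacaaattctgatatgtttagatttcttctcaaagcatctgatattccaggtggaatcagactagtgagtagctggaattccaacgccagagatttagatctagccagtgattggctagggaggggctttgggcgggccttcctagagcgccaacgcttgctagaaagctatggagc
Smim38: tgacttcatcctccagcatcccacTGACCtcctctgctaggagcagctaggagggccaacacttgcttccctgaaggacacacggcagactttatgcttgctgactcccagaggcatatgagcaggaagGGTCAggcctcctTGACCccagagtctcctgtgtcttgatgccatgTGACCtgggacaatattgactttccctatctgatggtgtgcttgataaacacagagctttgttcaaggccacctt
F3: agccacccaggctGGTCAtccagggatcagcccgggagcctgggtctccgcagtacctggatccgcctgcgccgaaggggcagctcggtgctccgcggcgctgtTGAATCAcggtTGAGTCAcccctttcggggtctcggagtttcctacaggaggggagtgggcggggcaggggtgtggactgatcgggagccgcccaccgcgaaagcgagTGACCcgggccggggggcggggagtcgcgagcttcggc

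The Smim38 window held 4 half-sites and no AP-1 site, the F3 window held 2 of each, and the Pgr window held neither. Of 32851 promoters of this length, 35.2% held a half-site and 6.75% an AP-1 site. The full estrogen response element, which is a pair of facing half-sites 3 bases apart, was in 0.0639% of them and in none of the 5 promoters matched, which include Acot1 and Aasdhppt. These matches describe letters in a window and are no evidence of binding.

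Pgr encodes the progesterone receptor, a classical target of the estrogen receptor in mammary epithelium. Its log2 level was 8.05 and 7.57 on the vehicle arrays, 7.88 with fulvestrant, 9.41 with raloxifene, 9.57 with tamoxifen and 10.59 and 10.55 with E2. Fulvestrant lay between the vehicle arrays, and both nonsteroidal compounds lay above them and below E2. The mean of raloxifene and tamoxifen was 3.06-fold above fulvestrant (log2 difference 1.61 ± 0.21 SE, limma adjusted p = 0.041). Raloxifene minus fulvestrant equalled 55.3% and tamoxifen minus fulvestrant 61.4% of the E2 minus vehicle difference. The call was lost in 3 of 15 alternatives (adjusted p up to 0.0683), namely a further quantile normalization and leaving out either E2+acolbifene array. The other Pgr probe sets were dim, with levels from 5.34 to 6.07 on the vehicle and compound arrays, and showed no such difference (log2 0.12 and -0.09).

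Smim38 encodes a small membrane protein. Its log2 level was 6.21 and 6.07 with vehicle, 6.34 with fulvestrant, 7.65 with raloxifene, 7.6 with tamoxifen and 8.05 and 7.91 with E2. Fulvestrant lay close to vehicle and both nonsteroidal compounds close to E2. The nonsteroidal mean was 2.44-fold above fulvestrant (log2 1.29 ± 0.12, limma adjusted p = 0.0088), and the call held in 15 of 15 alternatives. Smim38 was also called in each pair of compounds that includes fulvestrant (limma adjusted p = 0.0281 for raloxifene and 0.0304 for tamoxifen, over all probe sets of the 3 pairs together). Both of these pair calls were lost in 7 of 14 alternatives (adjusted p up to 0.0836), namely the replicate block and leaving out any one vehicle, acolbifene or E2+acolbifene array. A brighter probe set of the gene gave the same order: 8.62 and 8.54 with vehicle, 9.06 with fulvestrant, 10.12 with raloxifene and 10.01 with tamoxifen (log2 1.0, limma adjusted p = 0.035), and a dim one differed by -0.1.

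Acot1 encodes a cytosolic acyl-CoA thioesterase that releases fatty acids from coenzyme A. Its log2 level was 6.88 and 7.15 with vehicle, 7.07 with fulvestrant, 8.05 with raloxifene, 8.02 with tamoxifen and 9.81 and 9.62 with E2. The nonsteroidal arrays stood above vehicle and fulvestrant but well below E2, at 36.2% and 35.2% of the E2 difference. The log2 difference of 0.96 ± 0.16 did not pass limma's test across all probe sets (adjusted p = 0.114). A probe set shared by Acot1 and Acot2 read 8.52 with fulvestrant, 9.19 with raloxifene and 9.35 with tamoxifen (log2 0.75, adjusted p = 0.0554), so the 2 paralogs cannot be separated there.

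F3 encodes tissue factor, the cell-surface starter of blood coagulation. Its log2 level was 8.43 and 8.48 with vehicle, 8.35 with fulvestrant, 9.0 with raloxifene, 9.47 with tamoxifen and 10.93 and 10.52 with E2. The nonsteroidal mean exceeded fulvestrant by 0.89 ± 0.14, and limma's test was not passed (adjusted p = 0.0916). Tamoxifen lay 0.47 above raloxifene, with a 95% interval of raloxifene minus tamoxifen from -0.83 to -0.11, and this pair was not called either (limma adjusted p = 1.0).

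Tgm2 encodes transglutaminase 2, which crosslinks proteins, and Aasdhppt the enzyme that attaches phosphopantetheine to acyl carrier domains. Tgm2 read 10.23 and 10.39 with vehicle, 10.04 with fulvestrant, 10.66 with raloxifene, 10.73 with tamoxifen and 11.56 and 11.49 with E2 (nonsteroidal minus fulvestrant 0.66 ± 0.11, limma adjusted p = 0.137). For Tgm2 the fulvestrant array was the lowest of these 7. In 4 other Tgm2 probe sets the difference was 0.32 to 0.46, and in a dim one it was near 0. The Aasdhppt probe set was itself dim (5.99 with fulvestrant, 6.68 with raloxifene, 6.63 with tamoxifen, adjusted p = 0.494), and the 3 brighter Aasdhppt probe sets differed by -0.11 to 0.07, so that gene rests on 1 weak probe set. A probe set without a gene name here was also called higher (6.35 with fulvestrant, 7.59 with raloxifene, 7.64 with tamoxifen, limma adjusted p = 0.0461).

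**Figure D1:**
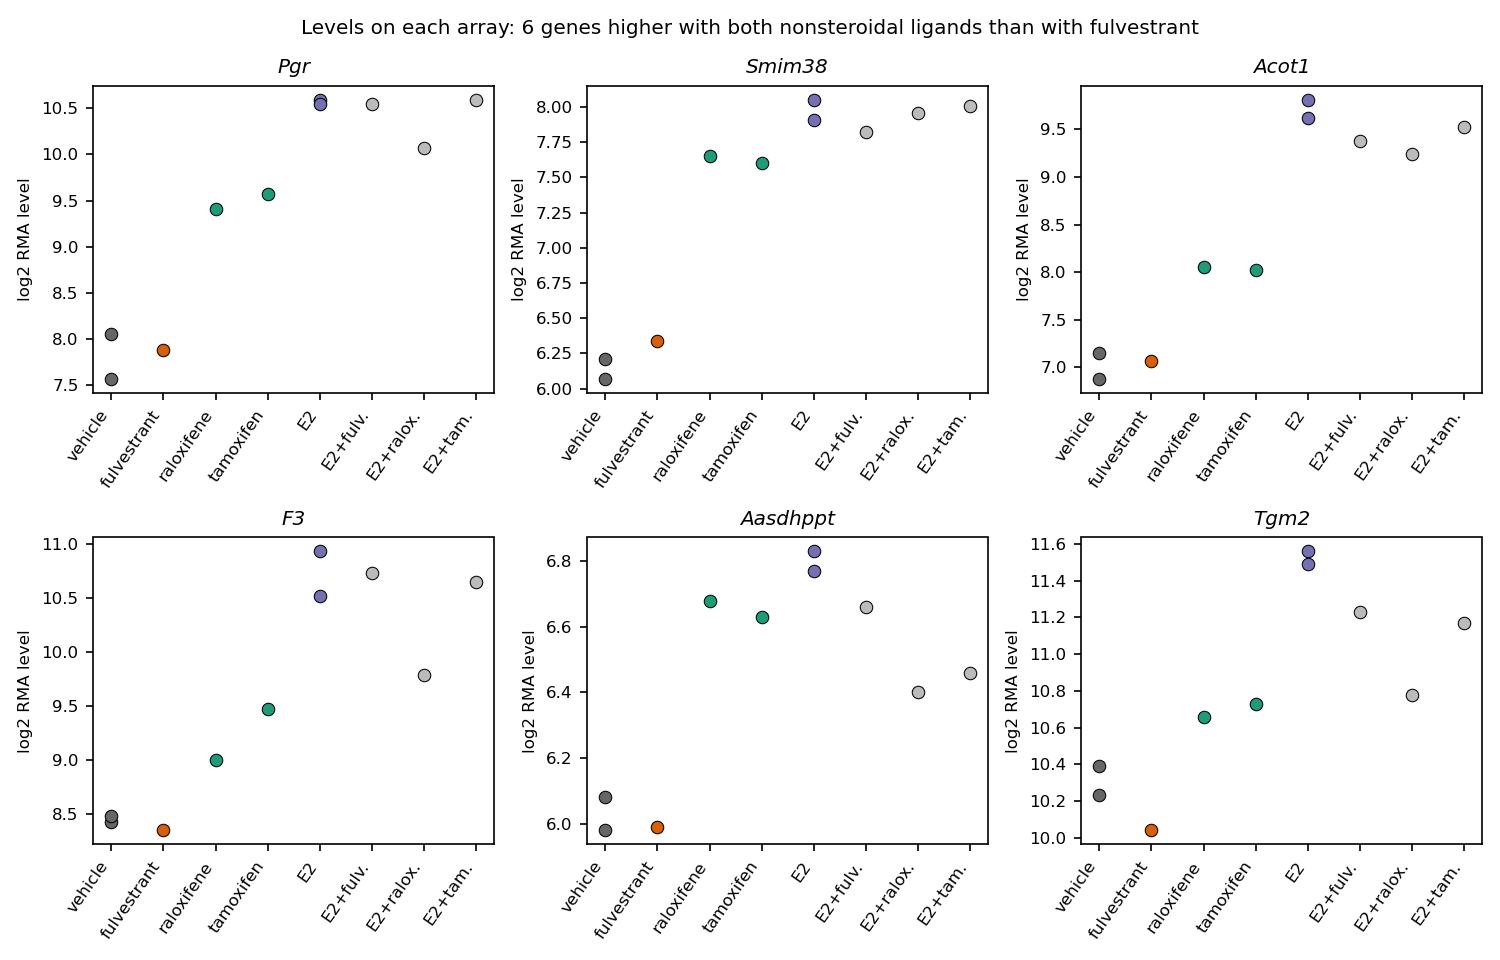
Log2 RMA level (vertical axis, its range set for each gene) of 6 genes on each array, 1 point an array, for vehicle, the 3 compounds alone, E2, and E2 with each compound. In all 6 panels raloxifene and tamoxifen lie above the vehicle arrays and below both E2 arrays, and fulvestrant lies near vehicle.

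Over all probe sets, limma called 28 for the nonsteroidal mean minus fulvestrant, which is 0.0622% of those tested. Of these, 4 (0.00888%) were higher, namely Pgr, both Smim38 probe sets and the unnamed one, and all 4 were among the 2.07% that limma called higher for E2 minus vehicle, a contrast with 3.74% called in either direction. The other 24 (0.0533%) were lower. With the 1.5-fold rule, 9 probe sets (0.02%) were higher on both nonsteroidal arrays and 55 (0.122%) were lower. Just inside the threshold lay Tgm2 at 1.54-fold higher and Mybpc1 at 1.5-fold lower, and just outside it Cipc at 1.48 and Bcat1 at 1.49.

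The higher and the lower set differed in how E2 moved them. All 9 higher probe sets were past 1.5-fold up on E2 array 1 against vehicle, where 0.915% of all probe sets were. The rule did not use E2 array 2, and all 9 were past 1.5-fold up there too (1.12% of all), although both E2 arrays are set against the same vehicle arrays. As a description of the chosen members, both nonsteroidal arrays lay above both vehicle arrays and below both E2 arrays in 9 of 9. Fulvestrant lay above both vehicle arrays in 3 of the 9, between them in 3 and below both in 3.

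Of the 55 lower probe sets, 14 were past 1.5-fold lower on E2 array 1 (1.06% of all probe sets were) and 4 higher. On E2 array 2, 0 of the 55 were past it lower (0.346% of all were) and 26 higher. Of the 14 that met the rule on E2 array 1, 12 lay above the vehicle mean on E2 array 2. Limma called 0 of the 55 lower for E2 minus vehicle (1.67% of all probe sets were called lower) and 10 higher. The lower side of the rule therefore rested on 1 E2 array. In these chosen members fulvestrant lay above both vehicle arrays in 55 of 55, as it did in 35.5% of all probe sets. Across all probe sets the nonsteroidal minus fulvestrant difference correlated with the E2 minus vehicle difference at r = 0.15 for E2 array 1 and 0.04 for E2 array 2, a description over probe sets, which are not independent.

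**Figure D2:**
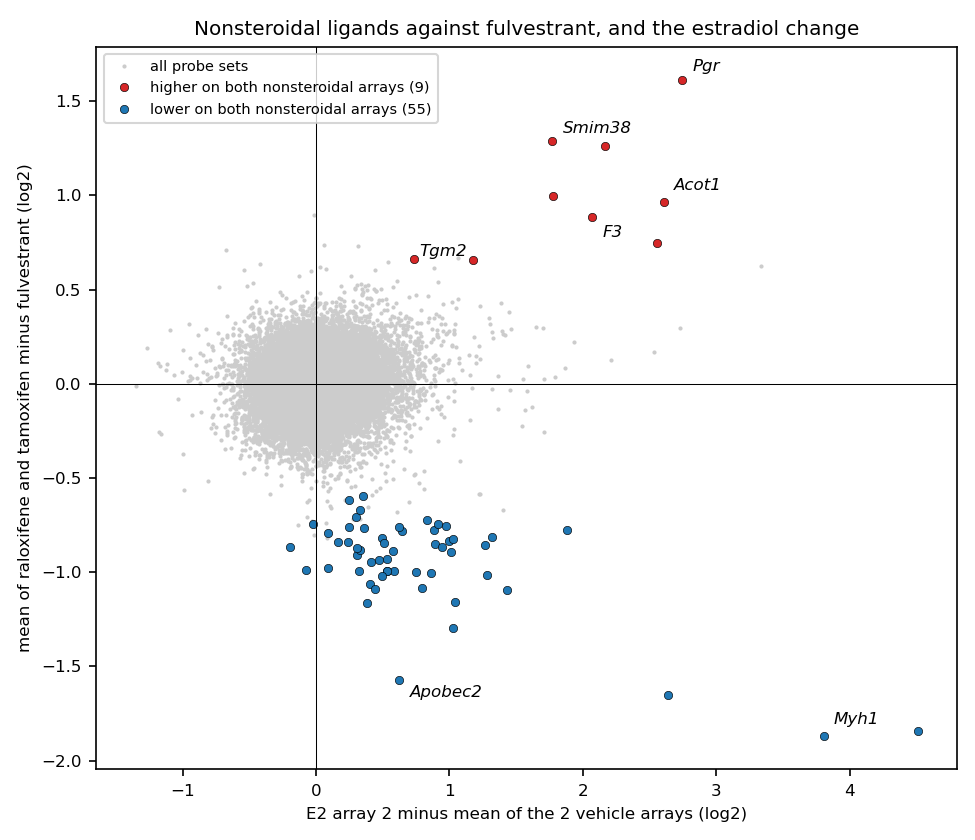
Each point is a probe set, with E2 array 2 minus the vehicle mean on the horizontal axis and the mean of raloxifene and tamoxifen minus fulvestrant on the vertical axis, both in log2. The 9 probe sets higher on both nonsteroidal arrays (red) all lie to the right of 0, and so do most of the 55 lower ones (blue).

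The nonsteroidal compounds matched the largest E2 rises unevenly. Among the 20 genes with the largest called E2 rise, 12 were above fulvestrant on both nonsteroidal arrays and 6 below it on both. Limma called 4 of the 20 for the nonsteroidal contrast, namely Pgr and Smim38, which were higher, and the muscle myosins Myh1 and Myh2, which were lower. An unadjusted limma p under 0.05 was found for 12 of the 20. Over all 45037 probe sets, 28 were called and 1482 had an unadjusted p under 0.05. Krt4, an epithelial keratin, had the largest E2 rise outside muscle, from 7.11 and 6.97 to 10.95 and 10.38. It read 7.15 with fulvestrant, 7.87 with raloxifene and 7.69 with tamoxifen, a difference of 0.63 (95% interval 0.35 to 0.9, limma adjusted p = 0.316) that equalled 19.8% and 14.8% of the E2 rise.

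Other strongly E2-raised genes showed smaller differences. Mmd2, of the progestin and adipoQ receptor family, read 6.35 and 6.52 with vehicle, 7.25 with fulvestrant, 7.48 with raloxifene and 7.62 with tamoxifen against 9.21 and 9.17 with E2 (nonsteroidal minus fulvestrant 0.3, interval -0.02 to 0.61). All 3 compounds, fulvestrant included, thus lay above both vehicle arrays for Mmd2. Aqp5, a water channel of secretory epithelia, differed by 0.3 (0.06 to 0.54) and Prom2, a membrane glycoprotein of epithelial protrusions, by 0.38 (0.12 to 0.64). Intervals spanned 0 for Ccn1, a matricellular protein (0.08, -0.15 to 0.31), Mad2l1, of the spindle checkpoint (0.02, -0.27 to 0.32), Gadd45g, a stress-induced growth regulator (-0.03, -0.36 to 0.3), and Greb1, a cofactor of the estrogen receptor (-0.12, -0.45 to 0.21). For these 4 genes the upper bound lay well below the E2 rise, which was 2.01 for Ccn1, 1.62 for Mad2l1, 1.57 for Gadd45g and 1.58 for Greb1. That rise is measured from vehicle, and fulvestrant lay above both vehicle arrays for all 4, most for Ccn1 (8.29 against 7.86 and 7.83). Measured from fulvestrant, E2 array 1 was higher by 1.7, 1.39, 1.53 and 1.39 in the same order. None of these 7 genes was called.

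**Figure D3:**
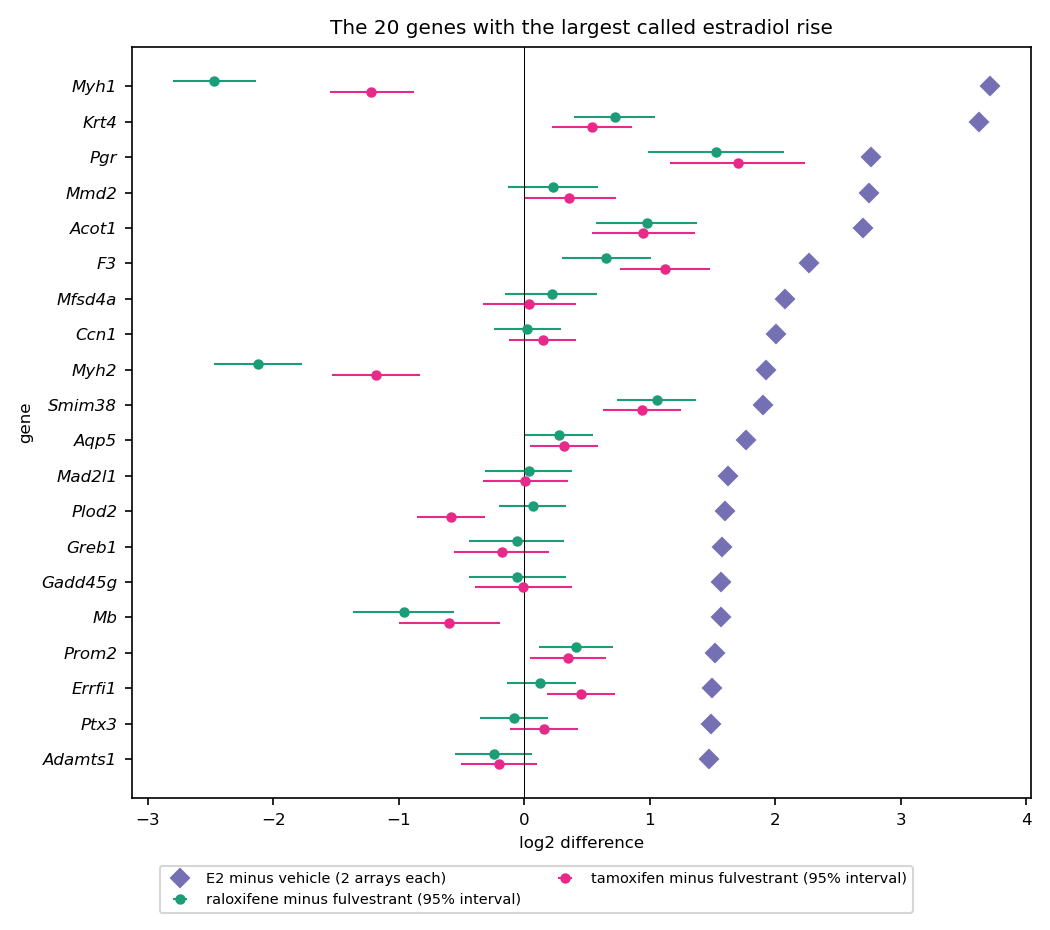
The 20 genes with the largest called E2 rise, with the log2 difference on the horizontal axis: diamonds show E2 minus vehicle, and circles with 95% intervals show raloxifene and tamoxifen minus fulvestrant. Pgr, Acot1, F3 and Smim38 lie to the right of 0 for both compounds, Myh1, Myh2 and Mb to the left, and Ccn1, Mad2l1, Greb1 and Gadd45g at about 0.

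Over the 363 probe sets that limma called higher with E2 by at least 1.5-fold, 197 (54.3%) were above fulvestrant on both nonsteroidal arrays, against 30.6% of all probe sets, and 65 (17.9%) were below on both, against 34.7%. Their median difference from fulvestrant was 0.098 with raloxifene and 0.088 with tamoxifen, which corresponds to a median of 12.8% and 10.6% of the E2 change. Both compounds are set against the same fulvestrant array, so their differences are not independent. With E2 present, the medians of these probe sets against E2+fulvestrant were -0.2 with raloxifene and -0.095 with tamoxifen. With either E2 array left out of the choice of the set, the share above was 49.1% or 56.6%. Over the 160 probe sets called lower with E2 by the same fold, 62 (38.8%) were below fulvestrant on both arrays, against 34.7% of all, and the medians were -0.022 and -0.0029.

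Among E2-lowered genes, Foxa1, a pioneer factor of luminal cells, read 10.38 and 10.52 with vehicle, 10.58 with fulvestrant, 10.37 with raloxifene, 10.26 with tamoxifen and 8.56 and 9.29 with E2. Its nonsteroidal minus fulvestrant difference was -0.27 (95% interval -0.55 to 0.01). For Fgfr2, a receptor of fibroblast growth factors whose E2 minus vehicle difference was -1.07 against -1.52 for Foxa1, it was 0.1 (-0.13 to 0.34). Among the 12 genes with the largest called E2 fall limma called 0 for the nonsteroidal contrast, and 4 had an unadjusted p under 0.05. Of all 45037 probe sets, 1482 had such a p.

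Of 33 measured estrogen receptor targets on a list chosen for this comparison, limma called 1 higher (Pgr) and 0 lower, and 3 had an unadjusted p under 0.05. Of all 18193 genes, 2 were called higher and 21 lower, and 650 had an unadjusted p under 0.05. Both nonsteroidal arrays lay above fulvestrant for 13 of the 33 (39.4%, against 27.4% of all 18193 genes) and below it for 10 (30.3%, against 38.3%). The brightest probe set of Stc2, which encodes the secreted glycoprotein stanniocalcin 2, read 10.39 with fulvestrant, 10.87 with raloxifene and 11.13 with tamoxifen, while vehicle was 10.54 and 10.62 and E2 10.74 and 10.66. Its difference of 0.61 was not called (limma adjusted p = 0.183), nor was that of 0.62 in a second probe set (0.346). In the first, both compounds lay above both E2 arrays. Targets such as Myc, Ccnd1 and Igf1 differed by -0.1, 0.04 and -0.09. Esr1, which encodes estrogen receptor alpha, differed by -0.04, with an upper bound of 0.22.

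With E2 present, most of the higher set did not keep its order. Pgr on E2+fulvestrant read 10.55, E2+raloxifene 10.07 and E2+tamoxifen 10.59, against 10.59 and 10.55 with E2 alone. Acot1 read 9.38, 9.24 and 9.53 and F3 10.73, 9.79 and 10.65 on the same 3 arrays. The first Smim38 probe set kept the order by a small margin, at 7.82, 7.96 and 8.01. The brighter Smim38 probe set did not (10.43, 10.3 and 10.61). Of the 9 higher probe sets, 0 were past 1.5-fold higher on both E2+nonsteroidal arrays (0.00666% of all were, and 0.0644% were lower), 1 was higher on both by any margin (32.8% of all) and 4 were lower on both (32.3% of all). The difference between the effects without and with E2 was 1.83 for Pgr (limma adjusted p = 0.143), 1.39 for F3 (0.107) and 1.12 for Smim38 (0.109), and none of the 6 genes was called for it. Limma called 14 probe sets for that difference (0.0311%; 6 above 0, 0.0133%, and 8 below, 0.0178%), none of them among the 9. For the nonsteroidal contrast with E2 it called 23 (0.0511%), 3 higher (0.00666%) and 20 lower (0.0444%).

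Skeletal muscle markers made up 25 of the 55 lower probe sets, while that list held 0.0777% of all probe sets. Another 29 of the 55 were of named genes outside that list. Many of these are muscle genes too, among them Mybpc2, Ryr1, Actc1, Tcap and Pgam2. Others, such as Cilp, C1qtnf3 and Serpina1b, are not. Of the 20 muscle markers on the list, limma called 13 lower for the nonsteroidal mean minus fulvestrant and 0 higher, and 19 were more than 1.5-fold lower on both arrays. Of all 18193 genes, 21 were called lower and 42 were more than 1.5-fold lower on both arrays. The median difference from fulvestrant was -1.01 with raloxifene and -0.9 with tamoxifen, against -0.03 and -0.01 over all genes. Mylpf, a fast myosin light chain, read 9.26 and 9.29 with vehicle, 10.11 with fulvestrant, 8.95 with raloxifene and 8.95 with tamoxifen (log2 -1.16 ± 0.1, limma adjusted p = 0.0088). Ckm, the muscle creatine kinase, read 10.78 on both vehicle arrays, 11.5 with fulvestrant, 10.44 with raloxifene and 10.45 with tamoxifen (-1.06 ± 0.11, adjusted p = 0.0185). Fulvestrant was thus the high array and both nonsteroidal arrays lay below vehicle. In such bulk tissue fewer cells of a type and less RNA per cell cannot be told apart.

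The muscle list also stood apart between the E2 arrays, which carry different raw-file codes, but not within the other pairs. Its median against the vehicle mean was 0.76 with fulvestrant (20 of 20 genes above), -0.29 with raloxifene, -0.2 with tamoxifen, -0.6 on E2 array 1 and 0.5 on E2 array 2. It was -0.04 and -0.06 on the acolbifene arrays and 0.72 and 0.68 on the E2+acolbifene arrays. With E2 it was -0.02 for fulvestrant, -1.34 for raloxifene and -0.36 for tamoxifen. With no term for the raw-file code, so that the E2 pair entered the spread, limma called 4 probe sets for the nonsteroidal contrast, 2 higher (Pgr, Smim38) and 2 lower (Cilp, Apobec2), and Mylpf, Ckm, Myh1 and Myh2 were no longer called. The part of muscle content in the results for other genes was not tested.

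**Figure D4:**
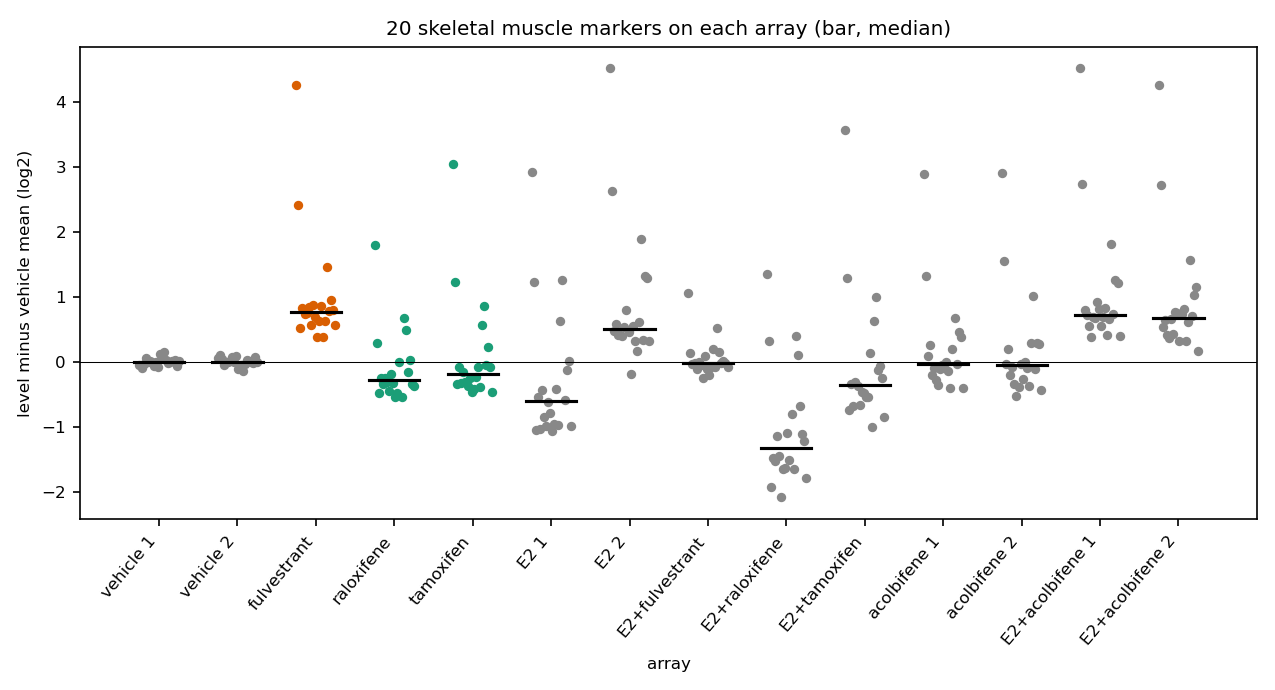
Log2 level minus the vehicle mean (vertical axis) of 20 skeletal muscle markers on each of the 14 arrays, 1 point a gene, with a bar at the median. Medians range from -1.34 with E2+raloxifene to 0.76 with fulvestrant, and the E2 arrays stand on opposite sides of 0.

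The muscle list was not uniform. Myh1, a fast myosin heavy chain, read 4.84 and 4.95 with vehicle, 9.15 with fulvestrant, 6.68 with raloxifene, 7.94 with tamoxifen and 7.81 and 9.4 with E2. Myh2, another, read 5.15 and 5.35 with vehicle, 7.66 with fulvestrant, 5.54 with raloxifene and 6.48 with tamoxifen. The compounds alone and E2 thus lay above vehicle for both genes, with fulvestrant highest of the 3 compounds and raloxifene lowest. Mb, which encodes myoglobin, had the same order, at 1.45 above the vehicle mean with fulvestrant, 0.86 with tamoxifen and 0.49 with raloxifene. The brightest probe set of Tpm2, a tropomyosin, was above vehicle by 0.62 with fulvestrant, 0.56 with tamoxifen and 0.67 with raloxifene. Other Tpm2 probe sets differed from it and were lower with both nonsteroidal compounds. One read 9.48 with fulvestrant, 8.65 with raloxifene and 8.59 with tamoxifen (-0.85), and another 8.37, 7.53 and 7.49 (-0.86). Neither was called. For Myh1 and Myh2, vehicle levels were below 6.65, the level under which probe sets were called dim, so the size of these rises is not exact. Apobec2, a muscle member of the deaminase family outside the list, read 7.93 with fulvestrant, 6.21 with raloxifene and 6.51 with tamoxifen (-1.57 ± 0.15, limma adjusted p = 0.0147) and kept its call in 14 of 14 alternatives. Its vehicle, raloxifene and tamoxifen levels were also under the dim level, so the size of its difference is not exact either.

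Genes outside the muscle list that limma called lower, named after their values were seen, included Cilp, C1qtnf3 and Cthrc1. The remaining calls outside the list were of muscle genes. These were Apobec2, Mybpc2, Actc1, Tcap, Ryr1 and Pgam2 (limma adjusted p from 0.0147 to 0.0461). Cilp, a cartilage matrix protein, read 7.52 and 7.41 with vehicle, 8.73 with fulvestrant, 7.92 with raloxifene and 7.54 with tamoxifen (-1.0 ± 0.11, limma adjusted p = 0.0185), and the call held in 15 of 15 alternatives. C1qtnf3, an adipokine of the complement C1q family, was dim on vehicle (4.92 and 4.49) and read 6.85 with fulvestrant, 6.15 with raloxifene and 4.96 with tamoxifen (-1.3 ± 0.16, adjusted p = 0.0355). Cthrc1, a secreted protein of activated fibroblasts that did not reach 1.5-fold with raloxifene, read 9.57 and 9.6 with vehicle, 10.61 with fulvestrant, 10.21 with raloxifene and 9.38 with tamoxifen (-0.82 ± 0.11, adjusted p = 0.041). For Cilp, C1qtnf3 and Cthrc1 fulvestrant was above both vehicle arrays and raloxifene lay between fulvestrant and tamoxifen. The calls of C1qtnf3 and Cthrc1 were lost in 7 of 14 and 10 of 15 alternatives.

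Among the other lists limma called none of the measured genes for the nonsteroidal contrast. Of 15 fibroblast and matrix markers, 12 lay below fulvestrant on both arrays (80.0%, against 38.3% of all genes), with medians of -0.22 and -0.16. An unadjusted limma p under 0.05 was found for 4 of them, and for 650 of all 18193 genes. Lox, which crosslinks collagen, read 11.23 with fulvestrant, 10.85 with raloxifene and 10.64 with tamoxifen. Of 15 macrophage markers 12 were also below on both (medians -0.14 and -0.2), and so were 12 of 15 interferon response genes (-0.09 and -0.13). Against E2+fulvestrant, the E2+raloxifene medians were above 0: 0.29 for the fibroblast list, 0.36 for macrophages and 0.4 for interferon response. Those of E2+tamoxifen were -0.12, -0.08 and 0.03.

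Some other lists had more genes above fulvestrant than below. Of 13 basal and smooth muscle cell markers 10 were above fulvestrant on both arrays (medians 0.12 and 0.11), and of 10 brown adipocyte markers 9 were (0.28 and 0.19), against 27.4% of all genes. With E2 present the medians were -0.13 and -0.14 for the basal list and -0.42 and -0.22 for brown adipocytes. Against vehicle the brown adipocyte median was 0.18 on E2 array 1 and -0.38 on E2 array 2. Elovl3, a fatty acid elongase of brown fat, read 9.37 with fulvestrant, 9.89 with raloxifene and 9.89 with tamoxifen. The keratinocyte list had medians of 0.15 with raloxifene and 0.54 with tamoxifen, with 8 of 12 genes above on both, and with E2 present its medians were -0.69 and -0.61. The cholesterol synthesis list had medians of 0.0 with raloxifene and 0.27 with tamoxifen. Other fat and epithelial lists lay on both sides of 0 or near it: -0.08 and 0.12 for adipocytes, -0.06 and 0.22 for fatty acid and triglyceride synthesis, 0.02 and 0.14 for luminal cells. The number of genes at an unadjusted limma p under 0.05 was 1 of 13 for the basal list and 3 of 10 for brown adipocytes. It was 7 of 12 for keratinocytes and 4 of 15 for cholesterol synthesis, against 650 of all 18193 genes.

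**Figure D5:**
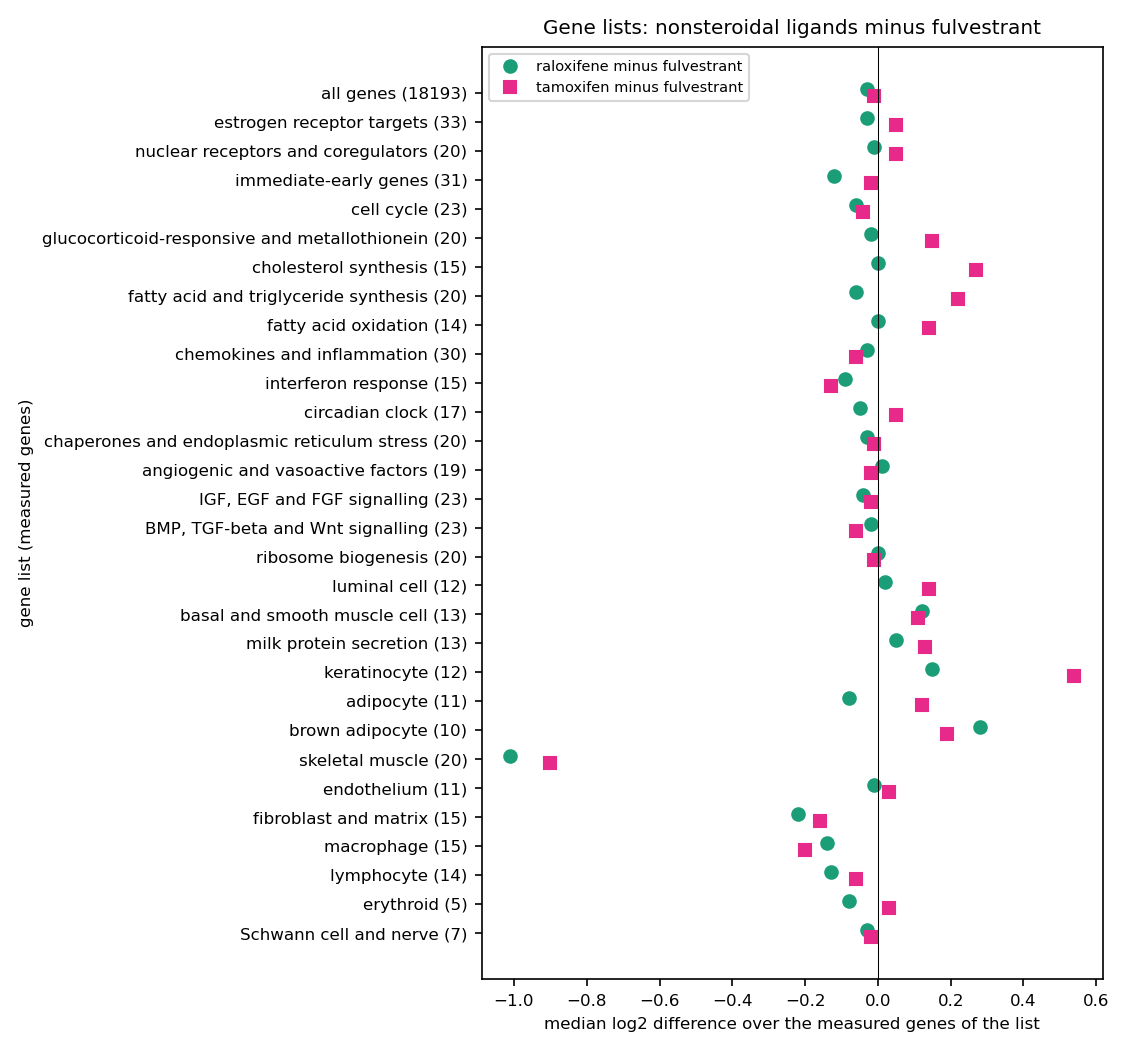
Median log2 difference from fulvestrant (horizontal axis) over the measured genes of each list, circles for raloxifene and squares for tamoxifen, with the number of genes in parentheses. The skeletal muscle list stands apart at -1.01 and -0.9, and both compounds are set against the same fulvestrant array.

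In all, 3 pairs of compounds were compared, and p-values were adjusted over the 3 pairs together. Limma called 13 probe sets (0.0289%) for raloxifene minus fulvestrant, 1 higher (0.00222%) and 12 lower (0.0266%). For tamoxifen minus fulvestrant it called 13 (0.0289%), 4 higher (0.00888%) and 9 lower (0.02%). For raloxifene minus tamoxifen it called 4 (0.00888%), 1 higher (0.00222%) and 3 lower (0.00666%). The first 2 pairs share the fulvestrant array, and without either acolbifene array the 3 counts were 3, 0 and 0. Without a test, 103 probe sets were over 1.5-fold apart between raloxifene and fulvestrant, 162 between tamoxifen and fulvestrant and 94 between raloxifene and tamoxifen. The same count was 111 for the vehicle pair, 153 for the acolbifene pair, 75 for the E2+acolbifene pair and 310 for the E2 pair, and the E2 pair alone crosses raw-file codes. Tamoxifen against fulvestrant thus exceeded the 3 pairs of one code, and the other compound pairs lay within their range. Between E2 array 1 and fulvestrant it was 681, and limma called 267 probe sets there (0.593%; 0.313% higher, 0.28% lower).

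For the genes of the higher set other than F3, raloxifene and tamoxifen were close. Raloxifene minus tamoxifen was -0.17 for Pgr (95% interval -0.71 to 0.37), 0.05 for Smim38 (-0.25 to 0.35), 0.03 for Acot1 (-0.38 to 0.43) and -0.07 for Tgm2 (-0.36 to 0.22). Intervals for Pgr and Acot1 leave room for a difference of more than 1.3-fold. Among the called probe sets was one for the immunoglobulin segment Igkv15-103, at 7.92 with fulvestrant, 7.97 with raloxifene and 9.14 with tamoxifen (-1.17, limma adjusted p = 0.035), and one for Myh1 (-1.25, adjusted p = 0.0477). The first call was lost in 7 of 14 alternatives, the second in 9 of 14. Ighm, the heavy chain of immunoglobulin M, was lower with raloxifene than with fulvestrant (7.57 against 8.87, limma adjusted p = 0.0281), with tamoxifen at 8.56; this call was lost in 7 of 14 alternatives. The brightest Ighm probe sets did not show this (raloxifene minus fulvestrant 0.12 and -0.03), so the call rests on weaker ones.

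Of 30 chemokine and inflammation genes limma called 1 lower for tamoxifen minus fulvestrant, Cxcl5, against 8 of all 18193 genes. The medians of the list were -0.03 with raloxifene and -0.06 with tamoxifen. Cxcl5, a neutrophil chemokine, read 7.59 with fulvestrant, 7.35 with raloxifene and 6.4 with tamoxifen, against 6.45 and 6.38 with vehicle, and tamoxifen minus fulvestrant was called (-1.19, limma adjusted p = 0.0434). The call was lost in 8 of 14 alternatives (adjusted p up to 0.404), among them leaving out any one vehicle, acolbifene or E2+acolbifene array. Slfn4, a Schlafen gene of myeloid cells, read 10.57, 10.59 and 9.59 on the fulvestrant, raloxifene and tamoxifen arrays, and Serpinb2, an inhibitor of plasminogen activation, 7.45, 7.67 and 6.49. Raloxifene minus tamoxifen was 1.0 for Slfn4 and 1.18 for Serpinb2, and neither passed limma's test (adjusted p = 0.0882 and 0.0938).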

How the data were processed

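The authors deposited log2 expression values of 14 Affymetrix arrays. Per the submitters' processing notes RMA produced them, and its version is not given in the sources used here. RMA compresses weak signals, so folds of dim probe sets are understated. The design text names an older murine array type than the one whose probe sets the table holds, so gene names come from the annotation of the probe sets. After 64 control probe sets were left out, 45037 remained, of which 34945 carried 1 gene symbol, 932 several and 9160 none here.

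Groups came from the treatment labels. The test was limma's (version 3.58.1, R 4.3.3, lmFit, eBayes, Benjamini-Hochberg, adjusted p under 0.05). Contrasts among compounds used the 14 arrays and a term for the code in the raw-file names (3 residual degrees of freedom); E2 minus vehicle used the 8 arrays of the groups with 2 arrays (4 residual degrees of freedom). The script was tested on simulated data. The number of arrays limits the precision.

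Members and the 29 gene lists (16 of pathways, 13 of cell markers) were chosen with earlier results of these data known. In a list a gene is its brightest probe set. The text names up to 12 genes per direction that met the partial agonist rule, 8 others past the fold and 6 that E2 moved oppositely. It also names the 5 largest raloxifene minus tamoxifen differences per direction, and list members. Cilp, C1qtnf3, Cthrc1, Cipc, Bcat1, Mybpc1, Ryr1, Actc1, Tcap, Pgam2, Ampd1 and Serpina1b were chosen after their values were seen. So were the genes taken for their E2 change. Alternatives changed the code term, the filter on dim probe sets, an intensity trend, normalization, the replicate block, the fold and the arrays left out.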

Additional observations from a re-analysis of the deposited data

Results flagged for a closer look

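For 14 probe sets the nonsteroidal minus fulvestrant difference without E2 was not the same as that with E2 by limma's test of the difference itself (adjusted p from 0.000596 to 0.0426). The log2 difference between both effects was -3.26 and -3.06 for 2 probe sets of Myh1 and -2.32 for Myh2, and it was -1.78 for Apobec2, which are muscle genes; E2+fulvestrant read 5.94 for Myh1 where fulvestrant alone read 9.15. It was 2.84 for Lor, 2.18 for Tchh, 2.15 for Krt77, 1.83 for Krt10, 1.55 for Krtdap and 1.52 for Krt25, genes of cornified epidermis and hair follicle that were higher with E2+fulvestrant (Krt77 8.71, Lor 7.83) than with vehicle, E2 or any other compound group of these contrasts. It was -1.52 for Cthrc1, -1.53 for a probe set with several gene symbols, -1.38 for Slfn4 and -1.28 for Mmp12, a macrophage elastase; Mmp12 read 9.13 with fulvestrant and 7.85 with E2+fulvestrant. Each side of these contrasts has 1 array a compound, and neither the muscle nor the skin content of the pools was tested as their source.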

How the results depend on the processing

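None of the 73 gene-level contrasts changed sign in the alternatives run; the E2 direction of the lower partial agonist set did change with the E2 array, as 12 of its 14 probe sets lay above the vehicle mean on array 2. Counts of called probe sets moved by over 1.5 times as follows, in the order nonsteroidal mean, raloxifene and tamoxifen minus fulvestrant, then raloxifene minus tamoxifen. With an intensity trend they were 111, 64, 135 and 59, and without dim probe sets 43, 26, 32 and 10. With no code term the first 3 were 4, 3 and 5. A further quantile normalization gave 8 for raloxifene minus fulvestrant. The contrast with E2 gave 158 with a trend and 4 with no code term, the difference between the effects without and with E2 gave 255 and 7, and E2 array 1 minus fulvestrant gave 1084 and 523, and 483 without dim probe sets. E2 minus vehicle gave 2720 with a trend and 479 with the code as a term.

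With the replicate block, the pairs gave 3, 2 and 1 and the contrast with E2 gave 14. Deviations of same-numbered arrays correlated from -0.123 to 0.117, and whether arrays of one number shared a batch was not tested. The block changed the call of 12 of the 73 gene-level contrasts (11 lost, 1 gained). Leaving out single arrays gave 13 to 28 for the nonsteroidal mean, 3 to 13 for raloxifene and 0 to 13 for tamoxifen minus fulvestrant, 0 to 4 for the nonsteroidal pair, 13 to 23 with E2, 8 to 14 for the difference between effects and 430 to 1615 for E2 minus vehicle.

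At 1.3-fold, 70 probe sets were higher and 115 lower on both arrays, of which 29 and 30 met the rule with E2; at 2-fold these were 3, 9, 3 and 1. Without the genes of the muscle, brown adipocyte and lymphocyte lists 30 were lower and 2 met the rule. These 2 were for Mybpc2 and Ampd1, which are muscle genes outside the list. The lower partial agonist set held 0 probe sets with E2 array 2, with both E2 arrays or with limma's E2 calls, and 52 with E2 array 1 minus fulvestrant, which shares the fulvestrant array. The leave-out of E2 arrays from the E2-raised set and its trimming by list were added after seeing the data.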
